A study of Mus musculus with 8 samples.

Results

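The genes described here are 10 genes of bile acid synthesis, conjugation and uptake: Cyp7a1, Cyp7b1, Cyp8b1, Cyp27a1, Akr1d1, Acox2, Amacr, Slc27a5, Baat and Slc10a1. They were chosen by gene symbol in the platform annotation of the array, with the brightest probe set taken where a gene had more than 1. All 10 were measured, each by 1 probe set, among 19937 genes with a probe set of a single symbol. RNA came from cultured primary hepatocytes of male BALB/c mice. Hepatocytes are the main cell type of the liver, and here livers were digested with collagenase and the cells purified on Percoll. The study concerned carbon monoxide metabolism and circadian transcription. Carbon monoxide is released by the heme oxygenases HO1 (gene Hmox1, inducible) and HO2 (gene Hmox2, constitutive).

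The 8 arrays fell into 4 groups of 2. Control cells were HO1+/+ with a scrambled short hairpin RNA (shRNA), HO1 knockout cells were HO1-/- with the scrambled shRNA, HO2 knockdown cells were HO1+/+ with an shRNA against HO2, and combined cells were HO1-/- with that same shRNA. Every group, controls included, was infected with lentivirus, kept in puromycin medium for selection from 24 h after infection, treated with 1 µM dexamethasone for 30 min after 3 days and harvested 28 h later. All values therefore belong to 1 time after synchronization and to cells exposed to a glucocorticoid. A single hairpin was used, so its effect on HO2 cannot be told apart from any effect of the hairpin on other RNAs. Genotype and hepatocyte preparation cannot be told apart either. The labels call the replicates biological without saying whether they were separate mice or cultures, so the p-values measure only the spread between these samples.

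Bile acids are made from cholesterol in hepatocytes. In the classical route CYP7A1 adds a hydroxyl group to the ring and sets the rate, and CYP8B1 steers the product to cholic acid. In the alternative route CYP27A1 oxidizes the side chain first and CYP7B1 then modifies the ring. AKR1D1 reduces the ring and peroxisomal enzymes shorten the side chain. A bile acid is joined to taurine or glycine from its coenzyme A ester, which the ligase encoded by Slc27a5 can form. The sodium-dependent carrier encoded by Slc10a1 (NTCP) returns bile acids from portal blood to the cell. Bile acids activate the nuclear receptor FXR, which induces the repressor SHP (gene Nr0b2) and thereby lowers Cyp7a1 transcription.

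RefSeq promoter windows (build GRCm38.p6, 250 bases before to 50 bases after a start site) were found for 5 of the 10 genes: Cyp8b1, Cyp27a1, Akr1d1, and, with 2 windows each, Acox2 and Slc10a1. The 250 bases before the start site are shown for the 3 genes in which a searched motif matched, so that the matches can be seen in place: Cyp8b1 (chr9:121916306-121916555, minus strand), Slc10a1 (chr12:80968080-80968329, minus strand) and Akr1d1 (chr6:37529923-37530172, plus strand). Capitals mark the motif matches, and each sequence reads 5′ to 3′ toward the gene.
Cyp8b1: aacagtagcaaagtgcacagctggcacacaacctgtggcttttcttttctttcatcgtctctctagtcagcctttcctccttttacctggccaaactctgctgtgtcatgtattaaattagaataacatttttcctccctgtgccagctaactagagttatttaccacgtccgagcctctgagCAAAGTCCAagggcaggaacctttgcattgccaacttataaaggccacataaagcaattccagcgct
Slc10a1: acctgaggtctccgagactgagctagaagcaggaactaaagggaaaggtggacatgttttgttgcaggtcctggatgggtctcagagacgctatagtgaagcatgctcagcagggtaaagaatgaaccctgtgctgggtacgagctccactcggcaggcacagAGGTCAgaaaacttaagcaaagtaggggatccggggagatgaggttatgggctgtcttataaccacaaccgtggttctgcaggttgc
Akr1d1: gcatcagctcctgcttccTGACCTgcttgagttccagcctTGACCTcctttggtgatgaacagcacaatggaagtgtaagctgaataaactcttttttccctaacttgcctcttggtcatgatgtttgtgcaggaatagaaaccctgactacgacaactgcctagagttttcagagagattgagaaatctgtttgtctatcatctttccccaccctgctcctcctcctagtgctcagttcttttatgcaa
The 7 motifs were searched on both strands: AGGTCA (a nuclear receptor site), CAAGGTCA (an LRH-1 site, which contains AGGTCA), CAAAGTCCA (an HNF4A site), GTTAAT (an HNF1 site), TTATGTAA and TTACGTAA (D-boxes) and CACGTG (an E-box). Cyp8b1 held CAAAGTCCA from position -67 to -59 relative to the start site, a motif found in 0.475% of all 32851 promoter windows. Slc10a1 held AGGTCA from -87 to -82, and Akr1d1 held AGGTCA on the opposite strand from -232 to -227 and from -210 to -205. AGGTCA occurred in 16.3% of all windows. The other 5 motifs were found in 1.56% (CAAGGTCA), 7.1% (GTTAAT), 0.938% (TTATGTAA), 0.119% (TTACGTAA) and 7.15% (CACGTG) of all windows and in none of the 7 windows of these genes. A match describes letters in a window, not a bound site.

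All values are log2 array signals as deposited. Array medians lay between 7.61 and 7.70, and replicate arrays correlated at 0.997 to 0.999 over all genes, against 0.975 to 0.989 between groups. The Hmox2 signal was 11.41 and 11.57 in control, 11.59 and 11.60 in HO1 knockout, 8.32 and 8.38 in HO2 knockdown and 9.26 and 9.33 in combined cells. It fell to 11.4% of control in HO2 knockdown cells and to 20.3% of HO1 knockout in combined cells, so less Hmox2 RNA remained in the former (adjusted p for the combined against HO2 knockdown difference 2.40e-08, limma). For Hmox1, the arrays labelled HO1-/- showed a higher signal, not a lower one: it was 11.46 and 11.40 in control, 11.98 and 11.97 in HO1 knockout, 11.54 and 11.57 in HO2 knockdown and 12.40 and 12.47 in combined cells. The rise was 0.54 in HO1 knockout against control (adjusted p = 3.37e-07, limma). It was 0.88 in combined against HO2 knockdown cells (adjusted p = 7.36e-10, limma). The cause of this rise was not tested. The probe set may cover exons outside the deleted part, which the labels do not describe, so it does not check the genotype, and every direction given for HO1 knockout rests on the labels.

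Cyp7a1, the rate-limiting enzyme of the classical route, rose with the HO2 shRNA, and rose more in HO1-/- than in HO1+/+ cells. Its signal was 5.50 and 5.38 in control, 5.45 and 5.44 in HO1 knockout, 6.03 and 6.13 in HO2 knockdown and 7.23 and 7.06 in combined cells. The first 2 groups overlapped, HO2 knockdown lay above both, and combined lay above all other arrays. The log2 fold change was 0.64 ± 0.099 (SE, n = 2 against 2) in HO2 knockdown against control, 1.56-fold, with an adjusted p of 0.000111 (limma with Benjamini-Hochberg adjustment over all genes, as for every adjusted p here). In combined against HO1 knockout cells it was 1.70 ± 0.099, 3.24-fold (adjusted p = 3.77e-09). HO1 knockout against control gave 0.0051 with a 95% interval of -0.21 to 0.22. The signal lay below the array medians, where background compresses differences, so these folds may understate the change in RNA. In control and HO1 knockout, at 5.38 to 5.50, it also lay below the mean of 10 neutrophil markers, which was 5.96 to 6.28 over the 8 arrays. A difference between control and HO1 knockout could therefore be hidden, and the lack of a called change does not show that HO1 knockout had no effect. Since these are bulk samples, a change in the share of hepatocytes and a change in RNA per hepatocyte cannot be told apart, for this gene or any other here.

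Cyp8b1, the sterol 12-alpha-hydroxylase that decides how much cholic acid is made, rose in HO2 knockdown cells and less in combined cells. Its signal was 6.89 and 6.72 in control, 7.00 and 7.02 in HO1 knockout, 7.91 and 7.77 in HO2 knockdown and 7.25 and 7.34 in combined cells. None of the 4 groups overlapped, and their order was control, HO1 knockout, combined, HO2 knockdown. The rise in HO2 knockdown was 1.04 ± 0.10 on the log2 scale, 2.05-fold (adjusted p = 9.49e-07). Combined cells were 0.49 above control (adjusted p = 0.00138) and lower than HO2 knockdown cells by -0.54 (adjusted p = 0.000751). Combined against HO1 knockout gave 0.29 with a 95% interval of 0.072 to 0.51 and missed the threshold (adjusted p = 0.0531). Under the alternatives this p ran from 0.0197 to 0.304, and it passed under 8 of them. These were no trend (0.0342), array weights (0.023), median centring (0.0417), quantile normalization (0.0476), the filter on dim genes (0.0421), only the 2 groups compared (0.0251), and leaving out control replicate 1 (0.0198) or control replicate 2 (0.0197).

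Cyp27a1, the mitochondrial sterol 27-hydroxylase that opens the alternative route, rose with the HO2 shRNA in both genotypes. Its signal was 10.45 and 10.54 in control, 10.35 and 10.42 in HO1 knockout, 11.11 and 11.25 in HO2 knockdown and 10.99 and 10.95 in combined cells. The arrays with the HO2 shRNA lay above those without it. The log2 fold change was 0.68 ± 0.060 in HO2 knockdown against control (1.61-fold, adjusted p = 2.82e-07) and 0.58 ± 0.060 in combined against HO1 knockout (1.50-fold, adjusted p = 2.08e-06). Combined cells fell by 0.22 against HO2 knockdown cells (adjusted p = 0.0118). That last call was lost without HO2 knockdown replicate 2 (-0.15, adjusted p = 0.138), without combined replicate 2 (-0.20, 0.0915) and after quantile normalization (-0.14, 0.0838), in a range over all alternatives of 0.00341 to 0.138.

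Cyp7b1, the oxysterol 7-alpha-hydroxylase of the alternative route, was the only one of the 10 genes below control in both HO1-/- groups by the test. Its signal was 8.14 and 8.38 in control, 7.80 and 7.81 in HO1 knockout, 8.03 and 8.16 in HO2 knockdown and 7.76 and 7.45 in combined cells. The 4 HO1-/- arrays lay below the 4 HO1+/+ arrays, while HO2 knockdown overlapped control. The mean log2 signal of 16 Kupffer cell and macrophage markers split the arrays by the same label, from 9.57 to 9.74 in HO1-/- and from 7.51 to 7.65 in HO1+/+, and its part in the Cyp7b1 result was not tested. Not every marker followed that mean: in HO1 knockout against control 1 fell and 3 did not pass. Cyp7b1 fell by 0.45 ± 0.11 in HO1 knockout, to 73.2% of control (adjusted p = 0.0144), and by 0.65 ± 0.11 in combined cells, to 63.8% of control (adjusted p = 0.000322). HO2 knockdown against control gave -0.16 (95% interval -0.40 to 0.082), and combined against HO1 knockout gave -0.20 (-0.44 to 0.044). The HO1 knockout call was lost without control replicate 2 (-0.33, adjusted p = 0.0981), without HO1 knockout replicate 1 (-0.44, 0.0873) and without HO1 knockout replicate 2 (-0.46, 0.0763), in a range over the alternatives of 0.00391 to 0.21. Combined cells also fell by 0.49 against HO2 knockdown cells (adjusted p = 0.00386), a call lost without combined replicate 2 (-0.33, adjusted p = 0.0886) in a range of 0.000699 to 0.0989.

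Akr1d1, the 5-beta-reductase that sets the bend of the sterol ring, differed little. Its signal was 5.90 and 5.67 in control, 5.63 and 5.71 in HO1 knockout, 5.99 and 5.89 in HO2 knockdown and 6.15 and 6.09 in combined cells, all below the array medians. Combined cells lay above the other 6 arrays and HO2 knockdown overlapped control. Akr1d1 rose in combined against HO1 knockout cells by 0.45 ± 0.10 (1.37-fold, adjusted p = 0.00345), and HO2 knockdown against control gave 0.16 (95% interval -0.053 to 0.38). The rise in combined cells against control, 0.34 (adjusted p = 0.0176), was lost without control replicate 2 (0.22, adjusted p = 0.137), combined replicate 1 (0.31, 0.115) or combined replicate 2 (0.36, 0.0696), in a range of 0.00283 to 0.137.

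Amacr encodes the racemase that turns side-chain intermediates into the form that peroxisomes can oxidize. Its signal was 9.95 and 9.92 in control, 9.58 and 9.60 in HO1 knockout, 10.00 and 10.11 in HO2 knockdown and 9.98 and 9.92 in combined cells. The HO1 knockout arrays lay below the other 6 and the HO2 knockdown arrays just above them, while control and combined overlapped. Amacr fell by 0.34 ± 0.064 in HO1 knockout, to 79.1% of control (adjusted p = 0.00174), and rose by 0.35 ± 0.064 in combined against HO1 knockout cells (adjusted p = 0.000594). Combined against control gave 0.016 with a 95% interval of -0.12 to 0.15.

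Acox2, the peroxisomal oxidase of the branched bile acid side chain, rose with the HO2 shRNA in both genotypes. Its signal was 10.60 and 10.63 in control, 10.78 and 10.98 in HO1 knockout, 11.75 and 11.82 in HO2 knockdown and 11.66 and 11.57 in combined cells. The 4 groups did not overlap, in the order control, HO1 knockout, combined, HO2 knockdown. The log2 fold change was 1.18 ± 0.062 in HO2 knockdown against control (2.26-fold, adjusted p = 8.27e-10) and 0.74 ± 0.062 in combined against HO1 knockout (1.66-fold, adjusted p = 2.51e-07). The HO1 knockout rise of 0.27 (adjusted p = 0.0083) was lost without HO1 knockout replicate 2 (0.17, adjusted p = 0.138), in a range of 0.00188 to 0.186. The difference of -0.17 between combined and HO2 knockdown cells (adjusted p = 0.0444) was lost whichever of their arrays was left out: 0.0821 without HO2 knockdown replicate 1, 0.222 without HO2 knockdown replicate 2, 0.0565 without combined replicate 1 and 0.29 without combined replicate 2. Over all alternatives this p ran from 0.0155 to 0.29, and combined and HO2 knockdown are thus neighbours in the order that these arrays separate weakly.

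Slc27a5 and Baat, the genes of activation and conjugation, behaved differently. Slc27a5, the bile acyl-CoA ligase that activates the acid, had signals of 6.94 and 6.61 in control, 6.67 and 6.71 in HO1 knockout, 6.97 and 7.04 in HO2 knockdown and 7.01 and 6.90 in combined cells. All lay below the array medians, where background compresses differences. The 2 control arrays enclosed both HO1 knockout arrays, and no comparison passed the threshold. HO2 knockdown against control gave 0.23 with a 95% interval of -0.016 to 0.47, and combined against HO1 knockout gave 0.26 (0.022 to 0.50, adjusted p = 0.12). Without control replicate 1, HO2 knockdown against control was 0.39 (adjusted p = 0.0108) and combined against control 0.34 (adjusted p = 0.0208). Combined against HO1 knockout passed without control replicate 1 (adjusted p = 0.0325) or control replicate 2 (0.0325). Over the alternatives the 3 adjusted p-values ran from 0.0108 to 0.649, 0.0208 to 0.951 and 0.0325 to 0.453.

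Baat, the transferase that joins the activated acid to an amino acid, rose with the HO2 shRNA in both genotypes. Its signal was 6.67 and 7.03 in control, 6.90 and 7.14 in HO1 knockout, 8.25 and 8.19 in HO2 knockdown and 8.37 and 8.60 in combined cells. All 4 arrays with the HO2 shRNA lay above all 4 without it, and control and HO1 knockout overlapped. The log2 fold change was 1.37 ± 0.13 (2.58-fold, adjusted p = 4.46e-07) in HO1+/+ and 1.47 ± 0.13 (2.76-fold, adjusted p = 2.72e-07) in HO1-/- cells. Combined and HO2 knockdown cells did not differ by the test (0.26, 95% interval -0.0037 to 0.53, adjusted p = 0.118), although this passed without control replicate 1 (0.0421) or control replicate 2 (0.0427), in a range of 0.0242 to 0.528.

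Slc10a1, which encodes the sodium-dependent uptake carrier NTCP, had the largest rise with the HO2 shRNA among the 10 genes in each genotype. Its signal was 7.66 and 7.34 in control, 7.63 and 7.93 in HO1 knockout, 9.69 and 9.56 in HO2 knockdown and 9.80 and 9.71 in combined cells. The 2 groups with the shRNA lay far above the 2 without it, and combined lay just above HO2 knockdown. Its log2 fold change was 2.13 ± 0.11 (4.37-fold, adjusted p = 9.34e-10) in HO1+/+ and 1.98 ± 0.11 (3.94-fold, adjusted p = 3.20e-09) in HO1-/- cells. Combined against HO2 knockdown gave 0.13 with a 95% interval of -0.11 to 0.37. HO1 knockout against control gave 0.28 (adjusted p = 0.141) and passed without control replicate 1 (0.44, adjusted p = 0.014), in a range of 0.014 to 0.678.

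**Figure D1:**
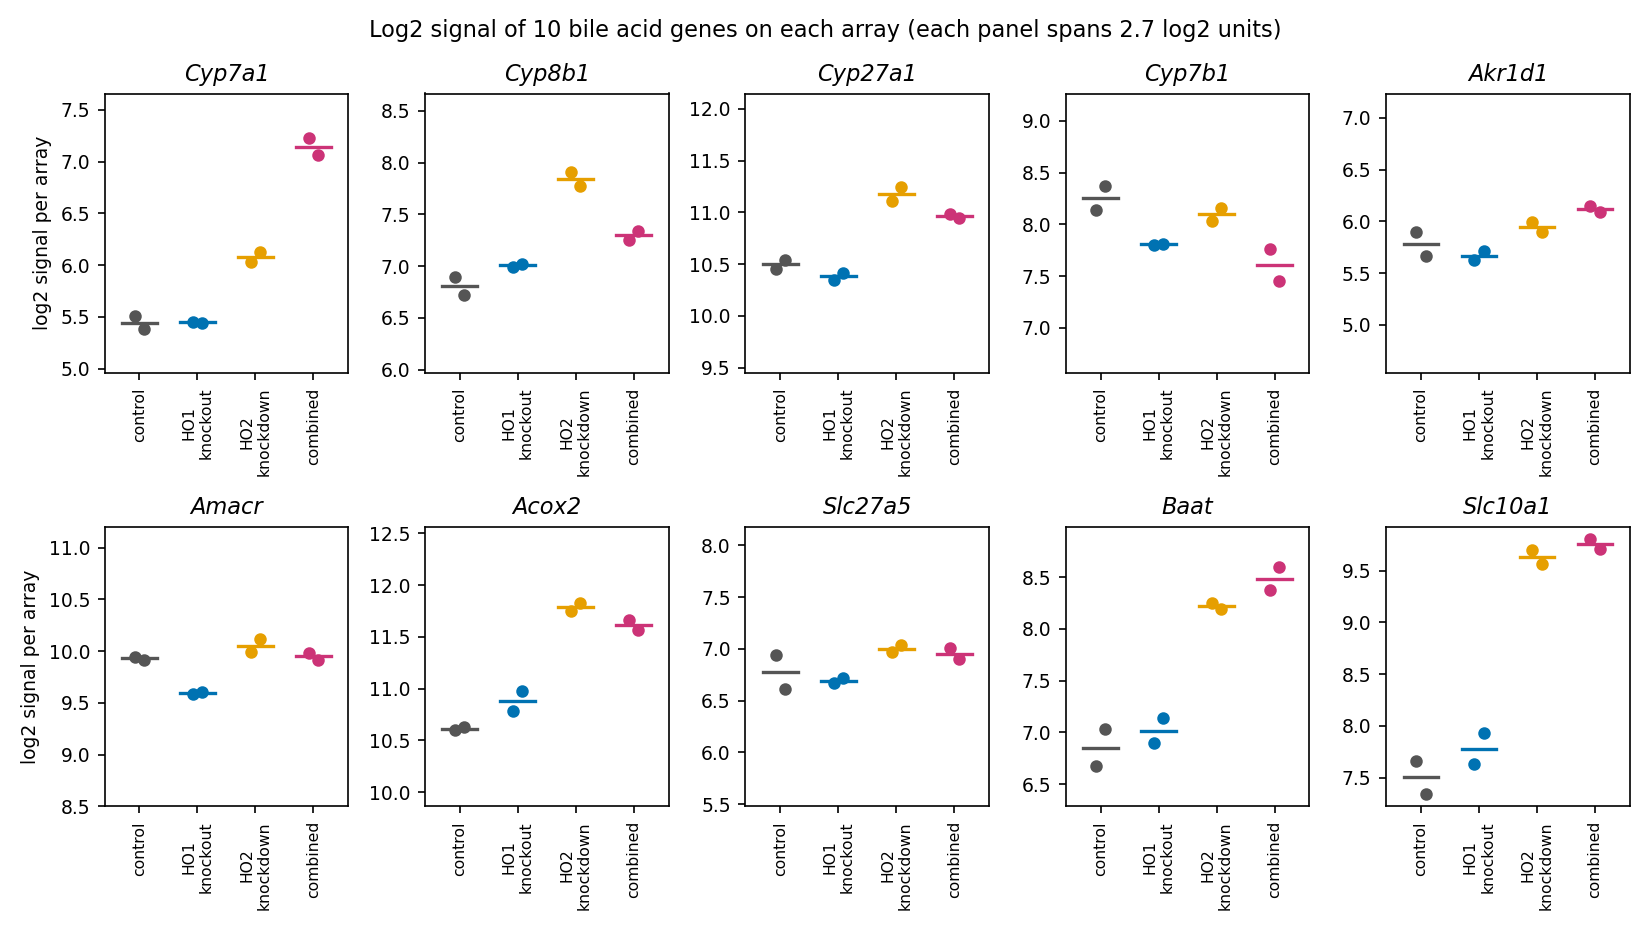
The log2 array signal of each of the 10 genes is plotted for the 4 groups, 1 point per array with a line at the mean of each pair, on vertical axes of equal span. For Slc10a1, Baat, Acox2, Cyp27a1, Cyp8b1 and Cyp7a1 all 4 arrays with the HO2 shRNA lie above all 4 without it, Cyp7a1 is highest in the 2 combined arrays (7.23 and 7.06), and Cyp7b1 is lowest in the 4 HO1-/- arrays.

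The HO2 shRNA in HO1+/+ cells raised genes of both synthesis routes, side-chain oxidation, conjugation and uptake: 6 of the 10 genes rose and none fell, from Slc10a1 (2.13) through Baat (1.37), Acox2 (1.18), Cyp8b1 (1.04) and Cyp27a1 (0.68) to Cyp7a1 (0.64). Of all 19937 genes, 33.2% passed in this comparison, 16.5% as higher. The median log2 fold change was 0.66 over the 10 genes and -0.066 over all genes. The 4 genes that did not pass were Slc27a5, Akr1d1, Amacr and Cyp7b1, with values from -0.16 to 0.23. No gene fell at an unadjusted p under 0.05 either (limma). The arrays of the 2 groups did not overlap for 8 genes, all higher. Over all genes this held for 65.4%, with 25.7% higher and 39.7% lower.

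In HO1-/- cells the same hairpin raised 7 of the 10 genes and lowered none, where 23.0% of all genes passed and 10.2% were higher. The median was 0.52 over the 10 genes and 0.014 over all genes. The 7 were Slc10a1 (1.98), Cyp7a1 (1.70), Baat (1.47), Acox2 (0.74), Cyp27a1 (0.58), Akr1d1 (0.45) and Amacr (0.35). At an unadjusted p under 0.05, 9 were higher and 0 lower (limma). Arrays did not overlap for 9 genes that were higher and for 1, Cyp7b1, that was lower, against 59.8% of all genes (31.4% higher, 28.5% lower). Passing as lower were 12.8% of all genes. This comparison and that in HO1+/+ cells share no arrays. Slc10a1, Baat, Acox2, Cyp27a1 and Cyp7a1 passed in both.

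HO1 knockout with the scrambled shRNA moved few of these genes. Acox2 rose by 0.27, Cyp7b1 fell by 0.45 and Amacr fell by 0.34, so 3 of 10 passed, against 12.8% of all genes (5.62% higher, 7.20% lower). Arrays did not overlap for 2 genes that were higher and 3 that were lower, against 46.1% of all genes (15.3% higher, 30.8% lower). The median was -0.041 over the 10 genes and also -0.041 over all genes. Leaving out HO1 knockout replicate 2 left 1 called gene, and the individual calls that depend on single arrays are given with each gene. Combined against control shares its control arrays with both single comparisons. There 7 genes rose and 1, Cyp7b1, fell, where 29.9% of all genes passed (11.6% higher, 18.3% lower), and the median was 0.48 over the 10 genes against -0.019 over all genes. Arrays did not overlap for the same number, 7 higher and 1 lower, against 57.8% of all genes (23.6% higher, 34.2% lower).

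The HO1 genotype among cells with the HO2 shRNA, combined against HO2 knockdown, raised Cyp7a1 by 1.06 ± 0.099 (2.09-fold, adjusted p = 9.28e-07). Cyp8b1, Cyp7b1, Cyp27a1 and Acox2 fell by 0.54, 0.49, 0.22 and 0.17. These 5 of 10 genes stand beside 34.0% of all genes that passed (13.0% higher, 21.0% lower), and the median was -0.078 against 0.022 over all genes. Of all genes called here, 38.2% were higher, or 27.1% with each array centred on its median and 47.7% after quantile normalization. Arrays did not overlap for 4 genes that were higher and 5 that were lower, against 73.8% of all genes (38.5% higher, 35.4% lower). The count fell to 3 without HO2 knockdown replicate 2 and to 2 without combined replicate 2.

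**Figure D2:**
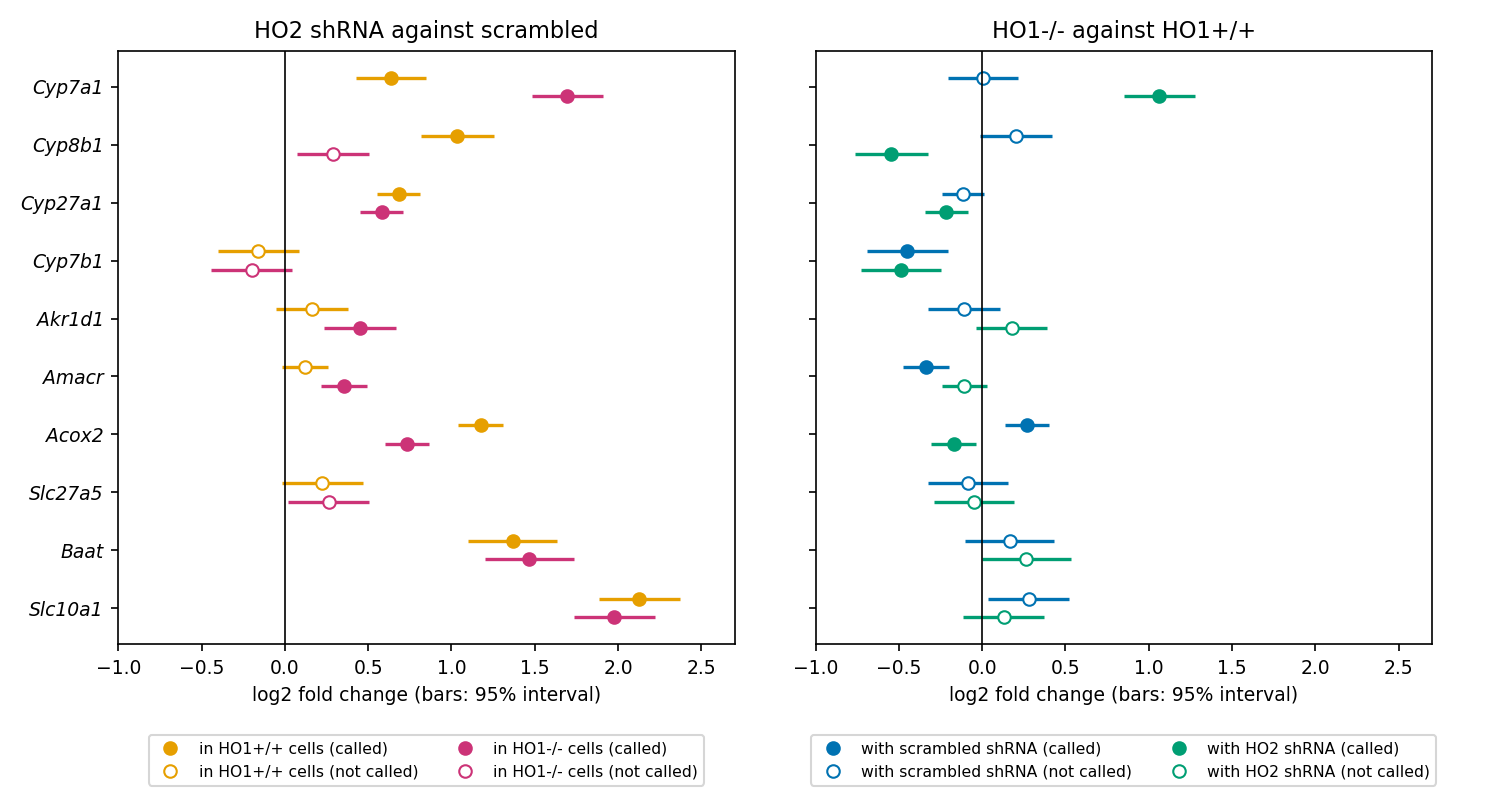
Points give the log2 fold change of each of the 10 genes and bars its 95% interval, for the HO2 shRNA in each genotype (left) and the HO1 genotype with each shRNA (right), filled where the adjusted p was under 0.05. With the HO2 shRNA, 6 genes are higher in HO1+/+ cells and 7 in HO1-/- cells and none is lower, while HO1 knockout gives values from -0.45 to 0.28.

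Whether the effect of the HO2 shRNA depended on the HO1 genotype was tested as an interaction, the effect in HO1-/- minus the effect in HO1+/+ cells on the log2 scale. For Cyp7a1 the effect was 1.06 ± 0.14 larger in HO1-/- cells (adjusted p = 0.000173), where the sum of the 2 single effects gives 0.64 above control and combined cells were at 1.70. Both the sum and the interaction use the low Cyp7a1 signals of control and HO1 knockout, and how far compression there alters them was not tested. For Cyp8b1 the effect was smaller in HO1-/- cells by -0.75 ± 0.14 (adjusted p = 0.00323), with a sum of 1.24 and a measured 0.49. For Acox2 it was smaller by -0.44 ± 0.088 (adjusted p = 0.00424), with a sum of 1.44 and a measured 1.00. Cyp7a1 and Cyp8b1, both classical-route hydroxylases, thus differed in opposite directions.

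These 3 of 10 genes stand beside 12.2% of all genes with an interaction that passed, 4.67% positive and 7.57% negative. Positive values made up 38.2% of those calls, 27.3% with each array centred on its median and 50.4% after quantile normalization. The interaction was -0.15 for Slc10a1 (95% interval -0.49 to 0.19), 0.099 for Baat (-0.28 to 0.48), -0.10 for Cyp27a1 (-0.28 to 0.080) and -0.038 for Cyp7b1 (-0.38 to 0.30). It was 0.037 for Slc27a5 (-0.30 to 0.38), 0.23 for Amacr (0.039 to 0.42, adjusted p = 0.109) and 0.29 for Akr1d1 (-0.017 to 0.59). The Akr1d1 value passed without control replicate 2 (0.40, adjusted p = 0.0409), in a range over the alternatives of 0.0409 to 0.483. With each gene's own spread over 4 residual degrees of freedom and no sharing across genes, the interactions of Cyp7a1 (adjusted p = 0.054), Cyp8b1 (0.0852) and Acox2 (0.155) all missed the threshold, and over the alternatives their adjusted p ran from 0.00011, 0.000942 and 0.00128 up to those values. Since Hmox2 fell by 3.14 on the log2 scale in HO1+/+ and by 2.30 in HO1-/- cells, the effects compared are of unequal knockdown, and the part of that gap in the interactions was not tested.

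**Figure D3:**
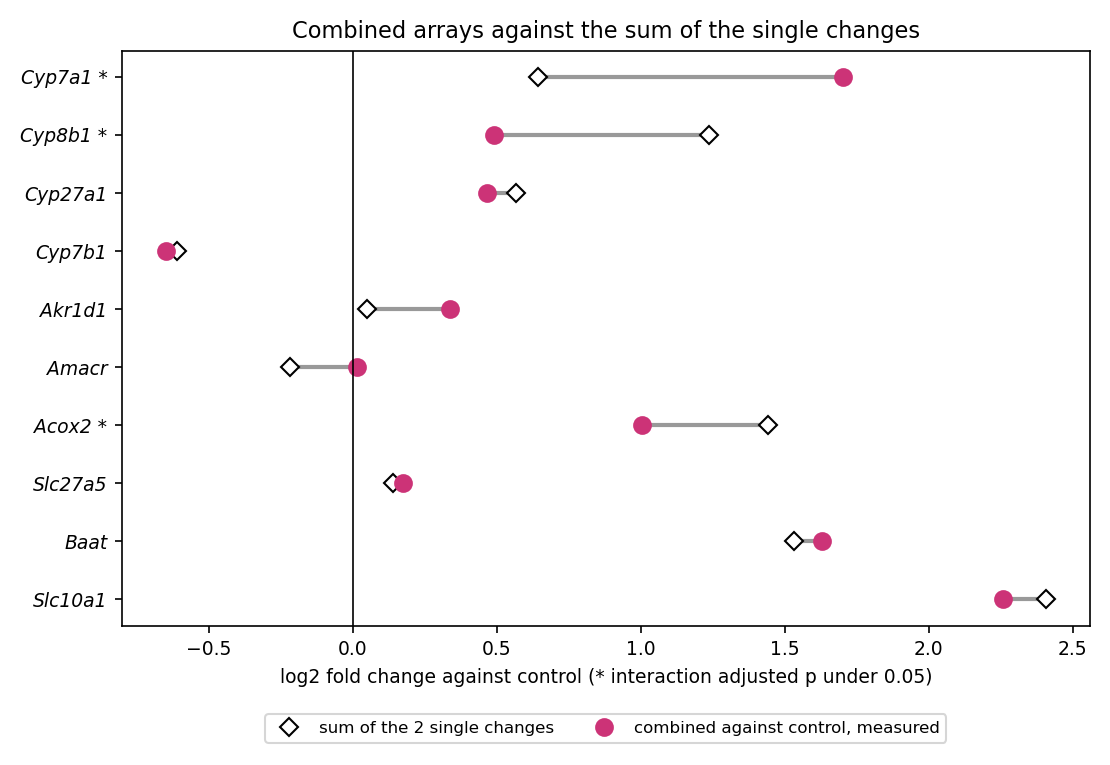
For each gene, the log2 fold change measured in combined cells against control (filled circle) is joined to the sum of the HO1 knockout and HO2 knockdown changes (open diamond), and an asterisk marks an interaction with an adjusted p under 0.05. The measured value lies above the sum for Cyp7a1 (1.70 against 0.64) and below it for Cyp8b1 (0.49 against 1.24) and Acox2 (1.00 against 1.44), and the other 7 genes have interactions that did not pass the test.

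Of the nuclear receptors and other regulators of bile acid genes, 17 of 18 listed genes were measured. With the HO2 shRNA, 12 rose and none fell in HO1+/+ cells (median 0.64), and 11 rose and none fell in HO1-/- cells (median 0.46). At an unadjusted p under 0.05 (limma) these counts were 13 and 0, and 11 and 0, and 1 regulator was lower in HO1+/+ cells without control replicate 2. Of all genes, 16.5% passed as higher and 16.7% as lower in HO1+/+ cells, and 10.2% and 12.8% in HO1-/- cells. Nr0b2, the repressor SHP, rose by 2.20 in HO1+/+ cells (adjusted p = 8.64e-11). Its signal was 8.34 and 8.67 in control, 8.35 and 8.50 in HO1 knockout, 10.69 and 10.73 in HO2 knockdown and 9.96 and 10.13 in combined cells. The 4 arrays with the HO2 shRNA were the highest for both Nr0b2 and Cyp7a1, but Nr0b2 was higher in HO2 knockdown and Cyp7a1 in combined cells. Nr1i2, the xenobiotic and bile acid receptor PXR, rose by 1.62, Prox1, a corepressor of bile acid synthesis genes, by 1.38, and Foxo1, an insulin-responsive factor, by 0.86. Nr1h4, which encodes FXR itself and is named for its role, outside the naming rule and with its value known, gave 0.16 (adjusted p = 0.115).

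For the regulators, HO1 knockout gave 2 higher and 1 lower genes, where 5.62% of all genes passed as higher and 7.20% as lower. The vitamin D receptor gene Vdr, whose product also binds bile acids, rose by 0.59 (adjusted p = 0.000554), Hnf4a, a master factor of hepatocyte genes, by 0.16, and Ppargc1a, a coactivator, fell by 0.22. The Vdr signal was 7.48 to 7.67 in HO1-/- and 6.90 to 7.03 in HO1+/+ arrays. It was split by the HO1 label like the macrophage marker mean, and the part of other cells in it was not tested. The 2 higher genes became 1 without control replicate 1 or HO1 knockout replicate 2 and 4 without control replicate 2. The lower gene was called in none of the fits that left out 1 array, except those without control replicate 2 or HO1 knockout replicate 2. The interaction was negative in 6 regulators and positive in none (7 and 0 at an unadjusted p under 0.05, limma), with Nr1i2 at -0.84 (adjusted p = 0.000701). Of all genes, 7.57% passed as negative and 4.67% as positive. The 6 negative regulators became 1 without the mean-variance trend, 2 at an adjusted p under 0.01 and 0 without moderation. That count of 6 became 3 without HO1 knockout replicate 2, HO2 knockdown replicate 1, combined replicate 1 or combined replicate 2.

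Among other steps of bile acid synthesis, 18 of 20 listed genes were measured. The HO2 shRNA raised 10 and lowered 2 in HO1+/+ cells (median 0.44), where 16.5% of all genes passed as higher and 16.7% as lower. It raised 8 and lowered 2 in HO1-/- cells (median 0.093), where 10.2% of all genes passed as higher and 12.8% as lower. Ch25h, the cholesterol 25-hydroxylase, was lower in both (-0.82 and -1.45). The other lower genes, named after their values were seen, were Hsd17b10 (-0.40) in HO1+/+ and Hsd3b7 (-0.61) in HO1-/- cells. The largest rises were in Slc27a2, a very-long-chain acyl-CoA synthetase (2.43, adjusted p = 9.68e-14), Acnat2 (2.14) and Acnat1 (1.53), peroxisomal acyl-transferases related to Baat, and Scp2 (1.14), which encodes the thiolase of the last side-chain cleavage. Acnat1, Acnat2 and Baat have similar sequences, and how far probes cross between them was not tested. HO1 knockout raised 1 and lowered 6 of the 18 measured genes, where 5.62% of all genes passed as higher and 7.20% as lower. Cyp2c70, the mouse enzyme that makes muricholic acids, fell by 0.77 (adjusted p = 2.53e-06), and Cyp39a1, an oxysterol 7-alpha-hydroxylase, rose by 0.42 (adjusted p = 0.000148). The count of 6 lower genes was 3 without the trend, with array weights, after median centring and at an adjusted p under 0.01. It was also 3 with only the 2 groups compared, and 2 without moderation. The 6 lower genes became 2 without control replicate 2 or HO1 knockout replicate 1, and 3 without HO1 knockout replicate 2. The interaction was positive in 1, Hsd17b10, and negative in 6, where 4.67% and 7.57% of all genes passed. Hsd3b7, the enzyme after CYP7A1, was at -0.65 (adjusted p = 0.000638). The positive count was 2 without control replicate 1, control replicate 2 or HO2 knockdown replicate 2.

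Of the bile acid and bile lipid transporters, 19 of 20 listed genes were measured. The HO2 shRNA raised 11 and lowered 2 in HO1+/+ cells (median 0.30), where 16.5% of all genes passed as higher and 16.7% as lower. It raised 7 and lowered 1 in HO1-/- cells (median 0.11), where 10.2% of all genes passed as higher and 12.8% as lower. The lower genes, named after their values were seen, were Abcc4 (-0.47 in HO1+/+ and -0.41 in HO1-/- cells), an exporter to the blood, and Slc22a7 (-0.33, in HO1+/+ cells), an organic anion carrier. The 2 became 1 without HO2 knockdown replicate 2, combined replicate 1 or combined replicate 2. Slco1a4, a sodium-independent uptake carrier, rose by 2.05, Abcg5 by 2.04 and Abcg8 by 1.99, the partner subunits of the sterol exporter into bile, and Abcb4, the phospholipid exporter, by 2.01. HO1 knockout raised 1 transporter, Abcc3, an exporter to the blood (0.26, adjusted p = 0.0011), and lowered 4, against 5.62% and 7.20% of all genes. Abcb11, the canalicular bile salt export pump, fell by 0.58 (adjusted p = 0.00633), Slco1a4 by 0.47, Slc10a2 by 0.41 and Abcc2, named after its value was seen, by 0.22. The Abcb11 call was lost without control replicate 2 (-0.35, adjusted p = 0.056) or HO1 knockout replicate 1 (-0.47, 0.0928), in a range over the alternatives of 8.17e-05 to 0.202, and the 4 lower transporters became 1 without either of these arrays. The interaction was negative in 6 transporters and positive in none (8 and 1 at an unadjusted p under 0.05, limma), against 7.57% and 4.67% of all genes. Abcg8 was at -0.84 (adjusted p = 0.00037) and Slco1b2, another uptake carrier, at -0.75 (adjusted p = 0.00298). Without control replicate 1, 2 transporters had a positive interaction.

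General hepatocyte genes also rose in the arrays in which the bile acid genes rose. Of 16 measured hepatocyte markers, 15 rose and 1 fell with the HO2 shRNA in HO1+/+ cells (median 1.00), where 16.5% of all genes passed as higher and 16.7% as lower. In HO1-/- cells, where these shares were 10.2% and 12.8%, 14 markers rose and none fell (median 0.62, 14 and 0 at an unadjusted p under 0.05, limma). The gene that fell was Apob (-0.15), named after its value was seen, and this call was lost without control replicate 2 or HO2 knockdown replicate 2. Their mean log2 signal was 10.54 to 10.56 in control, 10.86 to 10.92 in HO1 knockout, 11.96 in both HO2 knockdown arrays and 12.13 to 12.15 in combined cells. G6pc, the glucose-releasing phosphatase, rose by 3.04, Cps1, the entry enzyme of the urea cycle, by 2.99, Apoa2, a high-density lipoprotein component, by 2.80, and Tat, a glucocorticoid-responsive transaminase, by 2.37. HO1 knockout raised 10 of the 16 and lowered 1, Apob (median 0.29), where 5.62% of all genes passed as higher and 7.20% as lower. Among the 10 were Ambp, a secreted plasma protein gene (1.10), and Fgb, a fibrinogen chain gene (0.91). The interaction was negative in 7 of the 16 markers and positive in none (8 and 2 at an unadjusted p under 0.05, limma). Its median was -0.24, and 7.57% of all genes passed as negative and 4.67% as positive. More negative than positive interactions were thus not particular to the bile acid lists. Albumin was high in all 8 arrays, at 13.32 to 13.99.

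**Figure D4:**
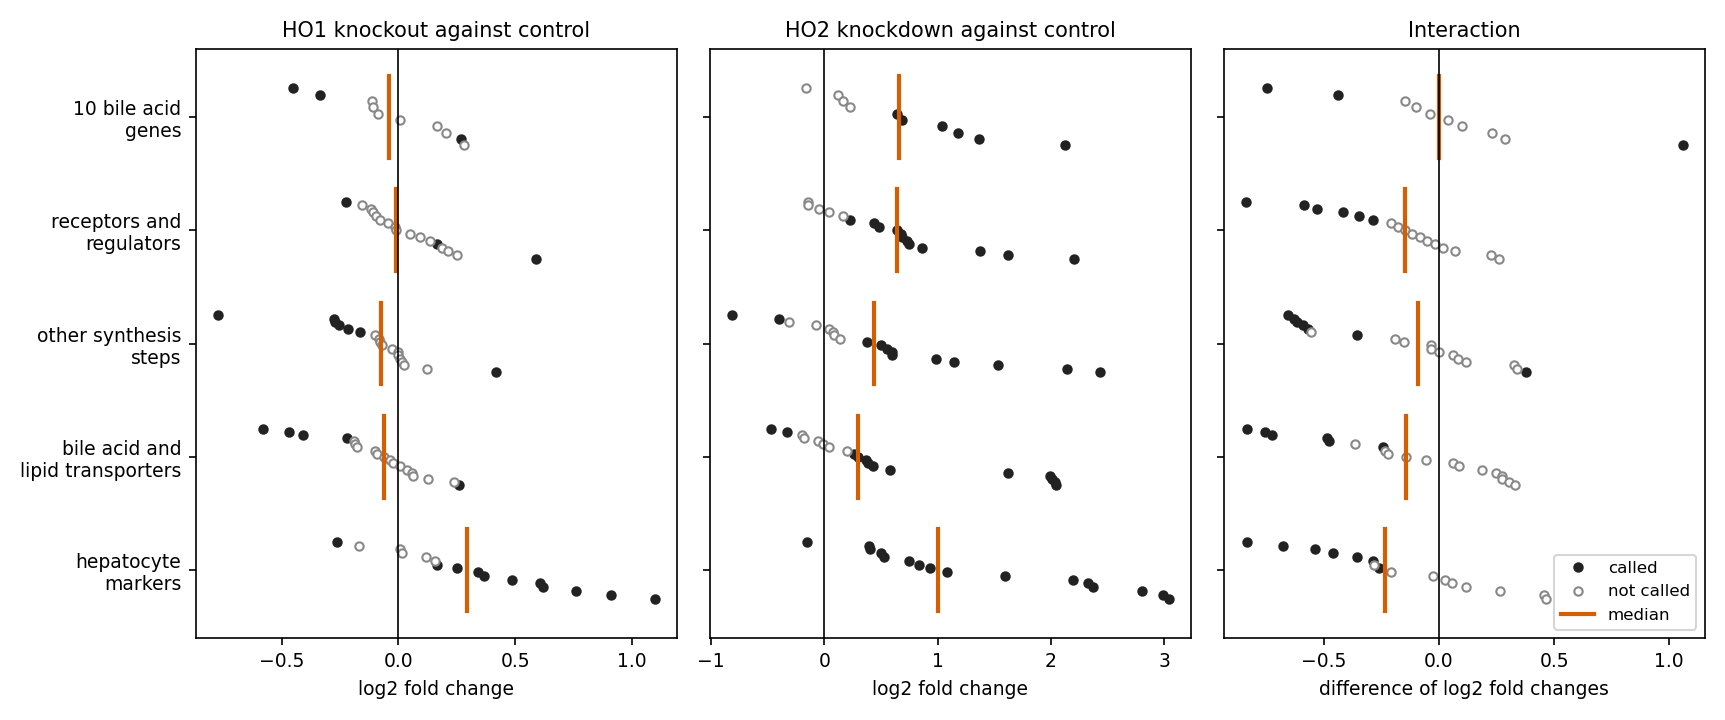
Each point is 1 measured gene, placed by its log2 fold change (or, for the interaction, the difference of log2 fold changes) and filled where the adjusted p was under 0.05, for the 10 genes, the bile acid regulators, the other synthesis steps, the transporters and the hepatocyte markers, with the list median marked. In the HO2 knockdown comparison the medians are 0.66, 0.64, 0.44, 0.30 and 1.00, in that order.

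Markers of proliferation and of other cells also differed between the groups. Of 9 measured proliferation genes, 9 fell with the HO2 shRNA in HO1+/+ cells (median -1.42) and 9 fell in HO1-/- cells (median -0.71). Of all genes, 16.7% and 12.8% passed as lower. The mean log2 signal of the 9 genes was 10.47 to 10.49 in control, 10.51 to 10.57 in HO1 knockout, 9.20 to 9.25 in HO2 knockdown and 9.86 to 9.89 in combined cells. Of 16 Kupffer cell and macrophage markers, 12 rose and 1 fell in HO1 knockout (median 2.30), where 5.62% of all genes passed as higher and 7.20% as lower. With the HO2 shRNA in HO1+/+ cells, where 16.5% of all genes passed as higher and 16.7% as lower, 0 markers rose and 2 fell. At an unadjusted p under 0.05 (limma) these counts were 0 and 4. The 2 became 5 without control replicate 2 and 1 without HO2 knockdown replicate 1 or HO2 knockdown replicate 2. The marker that fell in HO1 knockout was Vsig4 (-1.07), and Clec4f (-0.34) and Cd14 (-0.30) fell with the shRNA, all named after their values were seen. Their mean was 7.62 to 7.65 in control, 9.72 to 9.74 in HO1 knockout, 7.51 to 7.61 in HO2 knockdown and 9.57 to 9.61 in combined cells, so it followed the HO1 label, as Cyp7b1 did in the opposite direction. Of 12 stellate cell and fibroblast markers, 8 fell and none rose in HO1 knockout, where 7.20% of all genes passed as lower and 5.62% as higher. The median of these markers was -0.36, and 9 fell and 0 rose at an unadjusted p under 0.05 (limma). Their mean was 9.39 to 9.41 in control, 8.93 to 8.96 in HO1 knockout, 9.42 to 9.45 in HO2 knockdown and 9.15 to 9.25 in combined cells. The HO2 shRNA raised 3 and lowered 3 stellate markers in HO1+/+ cells, where 16.5% of all genes passed as higher and 16.7% as lower. It raised 8 and lowered 2 in HO1-/- cells, where these shares were 10.2% and 12.8%. The 8 became 5 at an adjusted p under 0.01 and 4 without moderation. The part of these other cells and of proliferation in the results for the 10 genes and for the other lists was not tested.

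The genes whose signal followed a member most closely over the 8 arrays, among 1308 genes spanning at least 1 on the log2 scale, are given as a description. The arrays share 4 group means, so the 8 points are not independent. For Slc10a1 they were Gfra1 (Pearson r 0.999), Lgi3 (0.996), Ftcd (0.995), Apoa1 (0.995) and Gltpd2 (0.994). For Cyp7a1 they were Fhl1 (0.988), Myl9 (0.976), Ttc36 (0.972), Apoc1 (0.971) and Krt7 (0.971), and for Cyp7b1 they were Nqo1 (0.969), Mmp10 (0.958), Bdh2 (0.944), Lrrc39 (0.942) and Fstl1 (0.936). The 5 genes named for each were different genes.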

How the data were processed

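RNA (300 ng per sample) was hybridized to whole-transcript arrays that hold 34760 probe sets. The values used are the authors' deposited log2 signals, background-corrected, normalized and summarized by RMA (affy, R 2.15.0) per the submitters' processing notes; the chip definition is not given in the sources used here. Of the probe sets, 21640 carried 1 gene symbol, 1321 several and 11799 none, and the brightest probe set with 1 symbol stood for each of 19937 genes. Group means over all 8 arrays were fitted with limma 3.58.1 (R 4.3.3; lmFit, eBayes with a mean-variance trend), two-sided, with Benjamini-Hochberg adjustment over all genes and a call at an adjusted p under 0.05, in 6 comparisons. The fit was tested on simulated data. The number of arrays, 2 per group, limits the precision.

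The members and lists were chosen with earlier results of these data known. Named genes were the 10 members, Hmox1, Hmox2 and, per bile acid or hepatocyte list, genes among the called ones with the largest fold changes (at most 4 for HO2 knockdown, 4 for HO1 knockout and 2 for the interaction), and the 5 closest-pattern genes of Cyp7a1, Slc10a1 and Cyp7b1. Of the other markers listed, 11 sinusoidal endothelial, 10 neutrophil and 7 cholangiocyte genes were measured and are given in the closing section. The alternatives were median centring, quantile normalization, a filter at a mean log2 signal of 6, no trend, robust moderation, no moderation, array weights, the mean over a gene's probe sets, a stricter adjusted p of 0.01, only the 2 groups compared, the replicate block and leaving out each array.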

Additional observations from a re-analysis of the deposited data

Results flagged for a closer look

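For the genes given here the effect of the HO2 shRNA differed between HO1-/- and HO1+/+ cells by limma's interaction test at an adjusted p under 0.05. Each value is the effect in HO1-/- minus the effect in HO1+/+ cells on the log2 scale, from 2 arrays a group. Among the 10 bile acid genes it was 1.06 for Cyp7a1 (effects of 0.64 in HO1+/+ and 1.70 in HO1-/- cells), -0.75 for Cyp8b1 (1.04 and 0.29) and -0.44 for Acox2 (1.18 and 0.74).

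For the heme oxygenases it was 0.34 for Hmox1 and 0.84 for Hmox2. Among the regulators it was -0.59 for Nr0b2, -0.84 for Nr1i2, -0.53 for Prox1 and -0.29 for Hnf4a, whose effects were positive in both genotypes. The call for Nr0b2 was lost without HO1 knockout replicate 2 (-0.51) or combined replicate 1 (-0.50). That for Prox1 was lost without HO1 knockout replicate 2 (-0.43), HO2 knockdown replicate 1 (-0.47), combined replicate 1 (-0.53) or combined replicate 2 (-0.53). Without the mean-variance trend, the calls for Nr0b2 (adjusted p = 0.0539), Prox1 (0.0762), Hnf4a (0.082) and Hmox1 (0.0553) were lost, in ranges over the alternatives of 0.000573 to 0.212, 0.000627 to 0.251, 0.00365 to 0.082 and 0.00136 to 0.0775.

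Among the other synthesis genes it was -0.62 for Scp2, -0.59 for Cyp39a1, -0.65 for Hsd3b7 and -0.63 for Ch25h, the last not called without combined replicate 1 (-0.51). Cyp39a1 had effects of 0.55 in HO1+/+ and -0.040 in HO1-/- cells, and Hsd3b7 of 0.043 and -0.61. Among the transporters it was -0.72 for Slco1a4, -0.84 for Abcg8, -0.49 for Abcc3 and -0.75 for Slco1b2, with Slco1a4 not called without HO2 knockdown replicate 1 (-0.61). Among the hepatocyte markers it was -0.68 for Cps1, -0.54 for Tat, -0.36 for Ambp and -0.83 for Fgb. The Ambp call was lost without the trend (adjusted p = 0.0502, range 0.000783 to 0.0819). Without moderation, every call given here except that for Fgb was lost.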

How the results depend on the processing

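Over 11 alternatives with all arrays, the fold changes of the 10 bile acid genes gave 644 values, of which 615 kept their side of the threshold, 19 lost a call and 10 gained one. Leaving out 1 array gave 480 values, of which 456 kept their side, 14 lost a call and 10 gained one. Of 2400 values for the other named genes, 102 lost a call and 11 gained one. No called value changed sign, but uncalled values near 0 did, in 3 of the 644, 17 of the 480 and 31 of the 2400. Without moderation, 1 of the 10 genes passed in HO1 knockout against control, 2 in combined against HO2 knockdown and 0 for the interaction (limma), where 4 had an unadjusted p under 0.05 and 192 of all genes passed. In combined against HO2 knockdown the count was 3 after quantile normalization and 3 at an adjusted p under 0.01. Leaving out 1 array, the counts ran from 1 to 4 in HO1 knockout, 6 to 7 in HO2 knockdown, 7 to 9 in combined against control, 7 to 9 in combined against HO1 knockout, 2 to 6 in combined against HO2 knockdown and 3 to 4 for the interaction. Akr1d1 in combined against HO1 knockout (adjusted p = 0.0603) and Cyp7b1 in combined against control (0.0546) were also lost without moderation, and the Amacr interaction passed after quantile normalization (0.0423).

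The count over all genes moved by more than 1.5 times in these cases. HO1 knockout against control fell from 2557 to 1575 at an adjusted p under 0.01, 1048 without moderation and 1704 without HO1 knockout replicate 1. Without moderation, HO2 knockdown fell from 6620 to 4070 and combined against HO1 knockout from 4587 to 2661. Combined against HO2 knockdown fell from 6775 to 4283 at 0.01, 3385 without moderation, 3827 without HO2 knockdown replicate 1, 4485 without combined replicate 1 and 4072 without combined replicate 2. The interaction moved from 2442 to 1359 without the trend, 1065 at 0.01, 4744 without control replicate 2, 1526 without HO1 knockout replicate 1, 1301 without HO2 knockdown replicate 1, 1365 without combined replicate 1 and 1349 without combined replicate 2. The cause was not tested.

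With the replicate number as a block, 3, 6, 8, 7, 5 and 3 of the 10 genes passed in the 6 comparisons, in the order HO1 knockout, HO2 knockdown and combined against control, combined against HO1 knockout, combined against HO2 knockdown and the interaction, as without the replicate block. Deviations of same-numbered arrays from their group means correlated at -0.26 to 0.12 over 6 pairs of groups, and 2 of 8 arrays were closest to their own number, so the numbers were not taken as pairing the samples.

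With 2 arrays a group, 4 residual degrees of freedom carry the spread, and single-gene calls lean on the spread shared across genes. Cyp7a1, Akr1d1 and Slc27a5 lie below the array medians in every array, where differences are compressed. Baat and Cyp8b1 do so in the control and HO1 knockout arrays, and Cyp8b1 also in the combined arrays. The genotype is not checked by Hmox1, and preparation and hairpin are confounded with the groups as described.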

Other observations

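Sinusoidal endothelial markers rose in part with both conditions. Of 11 measured, 4 rose in HO1 knockout (median 0.15) and 6 with the HO2 shRNA in HO1+/+ cells (median 0.38), and none fell in either (0 at an unadjusted p under 0.05, limma). Of all genes, 5.62% passed as higher in HO1 knockout and 16.5% with the HO2 shRNA in HO1+/+ cells. The mean log2 signal of the endothelial markers was 7.12 to 7.21 in control, 7.71 to 7.74 in HO1 knockout, 7.57 to 7.63 in HO2 knockdown and 8.04 to 8.16 in combined cells. Fcgr2b, an Fc receptor also found on macrophages and named after its value was seen, rose by 3.18 in HO1 knockout.

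Of 7 measured cholangiocyte markers, 1 (Krt7, 0.79) rose and 1 (Sox9, -0.19) fell with the HO2 shRNA in HO1+/+ cells, both named after their values were seen, with a list median of -0.070. The Sox9 call was lost without HO2 knockdown replicate 1, and 2 markers were lower without either HO1 knockout array. In HO1 knockout 1 fell, Cldn4 (-0.80), and none rose (1 at an unadjusted p under 0.05, limma). Without control replicate 1, 1 marker was higher. Of 10 measured neutrophil markers, S100a8 (0.50) and Csf3r (0.49) rose in HO1 knockout, and Mpo (-0.32) fell with the HO2 shRNA. The first count was 1 without HO1 knockout replicate 1. The second was 0 without control replicate 1 or HO2 knockdown replicate 1 and 4 without control replicate 2. Their mean log2 signal lay between 5.96 and 6.28 in all 8 arrays, below the array medians. Of all genes, 5.62% passed as higher and 7.20% as lower in HO1 knockout, and 16.5% and 16.7% with the HO2 shRNA in HO1+/+ cells. Main counts of 1 or 2 genes are too small to read as a result about the cholangiocyte or neutrophil list.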
